A study of Homo sapiens with 46 samples.

Results

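Transcripts of 35 genes that act in G2 phase and mitosis were followed in DLD-1, an established cell line from a human colorectal adenocarcinoma, while single lamins were targeted for degradation. The genes were taken by name, with earlier results of these data known, and all 35 were found among the 62756 genes of the count table. The untagged line (parental) was set beside 3 lines in which endogenous Lamin A/C (LAC), Lamin B1 (LB1) or Lamin B2 (LB2) bears an N-terminal auxin-inducible degron. Degrons of this type send the fused protein to the proteasome once auxin is present. Every line was sampled after 0, 16 and 96 h in 1 mM auxin, with DMSO as its solvent, and whether the 0 h wells received DMSO is not given in the sources used here. Of the 12 groups, 10 held 4 libraries, while LB1 at 0 h and LB2 at 96 h held 3. Each library came from 1 well of a plate, so p-values measure the spread between wells, which may be technical. Whether a tagged line is 1 clone is not given in the sources used here either.

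Entry into mitosis is driven by CDK1 bound to cyclin A or cyclin B, with PLK1 and the Aurora kinases acting beside it. Exit follows when the anaphase-promoting complex, activated by CDC20, marks cyclin B for destruction. Most of these genes are transcribed late in the cell cycle, under FOXM1 and the B-MYB-MuvB complex acting at promoter elements called CHR, and under NF-Y acting at CCAAT boxes. In bulk RNA, fewer cells in G2 or mitosis and less RNA per such cell cannot be told apart.

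Library totals ran from 479446 to 37309421 counts with a median of 11533218, and 6 libraries held under 5000000. Epithelial markers were present in every library (EPCAM from 349 to 563 counts per 1000000 counts of the library, CPM), except that CDX1 was at 0 in 40 of 46 libraries, VIL1 in 1 and LGALS4 in 5. Of the 8 markers of blood cells, fibroblasts and endothelium, none exceeded 5.28 CPM, and COL1A2 was at 0 in all 46. In 3 libraries, all with under 5000000 counts, lamin transcripts stood apart from the rest of the group. Replicate 1 of LAC at 0 h had LMNA, the Lamin A/C transcript, at 719.5 CPM against 239 to 355 in the other 3 libraries, and replicate 1 of LB2 at 0 h had LMNB2 at 249 CPM against 106 to 107. Both values lay within or near the parental range at 0 h, which was 636.5 to 915 for LMNA and 258 to 326 for LMNB2. Their other lamins did not: LMNB2 was at 590 CPM in the LAC library, and LMNA at 1473 CPM in the LB2 library. These values match neither their own group nor the parental line, so whether both carry the right label is in doubt, and they are named by their labels throughout. Replicate 3 of LB2 at 16 h, the shallowest library, had LMNB2 at 83.4 CPM against 134 to 183 and LMNA at 790.5 CPM against 479 to 518. Comparisons with called genes that use these libraries are given with and without them. Group means, sums and comparisons without a call are mostly given with them only.

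Averaged over all libraries and scaled per kilobase of gene length in the table, the highest levels were those of CDC20 (131 CPM per kilobase), CCNB1 (109) and TOP2A (102). CENPE, at 4.86, was the lowest of the 33 genes whose counting is not in doubt. The remaining pair, NUSAP1 (0.386) and PRC1 (0.917), share 81.4% and 57.6% of their exon bases with another annotated gene on the same strand, and their median counts were 16 and 56. Their values are therefore uncertain, and their group differences are not described further. NCAPG shares 33.7% of its exon bases with LCORL and SMC4 19.0% with TRIM59, both on the opposite strand, and whether counting used strand is not given in the sources used here.

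Promoters are shown because these genes are known for shared promoter elements. Whether the genes that fell in LB1 differ from the others in these elements was not tested. RefSeq windows on GRCh38.p14, from 250 bases before to 50 bases after a start site, were matched for 30 of the 35 genes. The letters TTTGAA or TTCGAA on either strand, the core of the CHR element, occurred in at least 1 window of 23 of the 30 genes (76.7%), against 19.5% of all 27305 genes in the table. CCAAT on either strand also occurred in 23 of the 30 (76.7%), against 39.7% of all genes, and 18 of the 30 held both. The 2 motifs have no overlap in the windows printed here. AURKA, BIRC5, TPX2, TTK and UBE2C were not in the table. The stretches below are the 200 bases before the start for the genes with the highest level in their role that hold a CHR core there, and for PLK1, which was added after its values were seen. They lie at CDC20 chr1:43358781-43358980 (plus strand), PLK1 chr16:23678689-23678888 (plus strand), TOP2A chr17:40417897-40418096 (minus strand), KIF11 chr10:92592930-92593129 (plus strand) and ANLN chr7:36389662-36389861 (plus strand), each read 5′ to 3′ on its gene's strand. Capitals mark the CHR core and the CCAAT box.
CDC20: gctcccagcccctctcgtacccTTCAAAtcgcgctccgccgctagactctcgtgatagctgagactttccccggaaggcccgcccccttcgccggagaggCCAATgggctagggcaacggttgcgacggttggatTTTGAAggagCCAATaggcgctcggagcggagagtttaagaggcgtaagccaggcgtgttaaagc
PLK1: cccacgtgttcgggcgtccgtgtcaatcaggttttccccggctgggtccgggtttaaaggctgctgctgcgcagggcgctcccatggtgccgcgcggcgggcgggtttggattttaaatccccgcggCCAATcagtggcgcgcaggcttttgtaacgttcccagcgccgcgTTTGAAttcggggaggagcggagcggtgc
TOP2A: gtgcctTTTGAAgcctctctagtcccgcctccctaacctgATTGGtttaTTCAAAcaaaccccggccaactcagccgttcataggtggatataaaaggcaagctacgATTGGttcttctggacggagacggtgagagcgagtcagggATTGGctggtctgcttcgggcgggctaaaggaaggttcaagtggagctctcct
KIF11: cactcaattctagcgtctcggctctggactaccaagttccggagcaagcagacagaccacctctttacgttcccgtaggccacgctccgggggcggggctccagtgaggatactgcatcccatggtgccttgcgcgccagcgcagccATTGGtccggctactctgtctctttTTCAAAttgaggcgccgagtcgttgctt
ANLN: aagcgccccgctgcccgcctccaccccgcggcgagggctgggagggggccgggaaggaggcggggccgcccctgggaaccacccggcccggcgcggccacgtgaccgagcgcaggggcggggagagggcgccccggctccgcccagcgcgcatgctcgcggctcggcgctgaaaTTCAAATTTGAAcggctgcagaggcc
A match of letters is not evidence of binding. In CDC20, a CHR core ends 60 bases before the start and a CCAAT box ends 51 bases before it. PLK1 has a CHR core ending 24 bases before the start and a CCAAT box ending 69 bases before it. The ANLN stretch holds a pair of adjoining CHR cores and no CCAAT box, and the gene did not pass the test in any comparison.

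Summed over the 35 genes, the level at 16 h was above that at 0 h in group mean in all 4 lines, and the level at 96 h was lower than at 16 h. The sum at 0, 16 and 96 h was 5700 ± 353, 6267 ± 138 and 5718 ± 176 CPM in the parental line (mean ± SD, n = 4 each). In LB1 it was 6138 ± 152 (n = 3), 6591 ± 365 and 5015 ± 389 CPM (n = 4 each). In LAC the sums were 6062 ± 891, 6841 ± 391 and 5649 ± 78.3 CPM (n = 4 each), and in LB2 they were 6219 ± 838, 6788 ± 650 (n = 4 each) and 5768 ± 272 CPM (n = 3). All 4 LB1 libraries at 96 h, from 4469 to 5299 CPM, lay below every other LB1 library and every parental library. The libraries that stood apart at 0 h had the lowest sums of their groups, 4848 CPM in LAC and 5061 CPM in LB2, and so had replicate 3 of LB2 at 16 h, with 5984 CPM. No test was made on this sum.

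**Figure D1:**
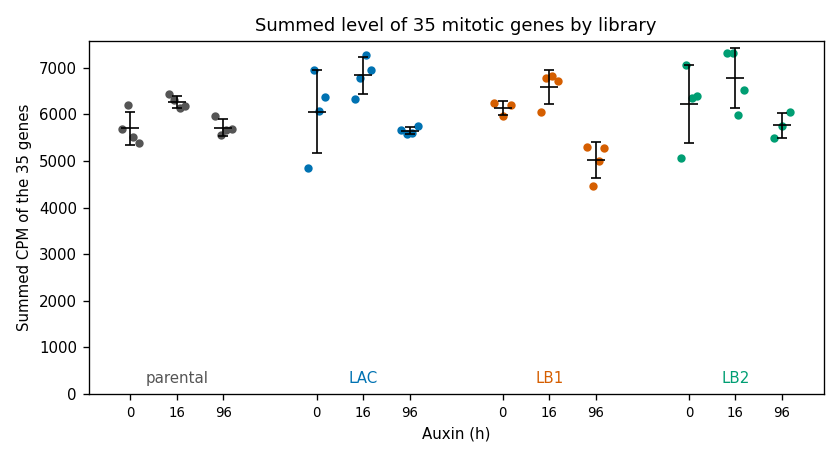
Summed CPM (y axis) of the 35 genes in each library (points) by hours in auxin (x axis) and line (colour), with mean and SD (black). The LB1 libraries at 96 h lie between 4469 and 5299 CPM, below all parental libraries.

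Each gene was tested with edgeR's quasi-likelihood test in 1 fit to all 46 libraries, with Benjamini-Hochberg adjustment over 21484 genes, and counted as called when its adjusted p was below 0.05. All 35 genes passed the filter on low counts. Log2 changes are given with the standard error of the fit, and adjusted p-values are edgeR's. Of 18 comparisons, the one with the most of these genes called was LB1 at 96 h against 16 h. For each line, the comparisons at 16 and 96 h against 0 h share their 0 h libraries, and comparisons with the parental line share parental libraries.

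**Figure D2:**
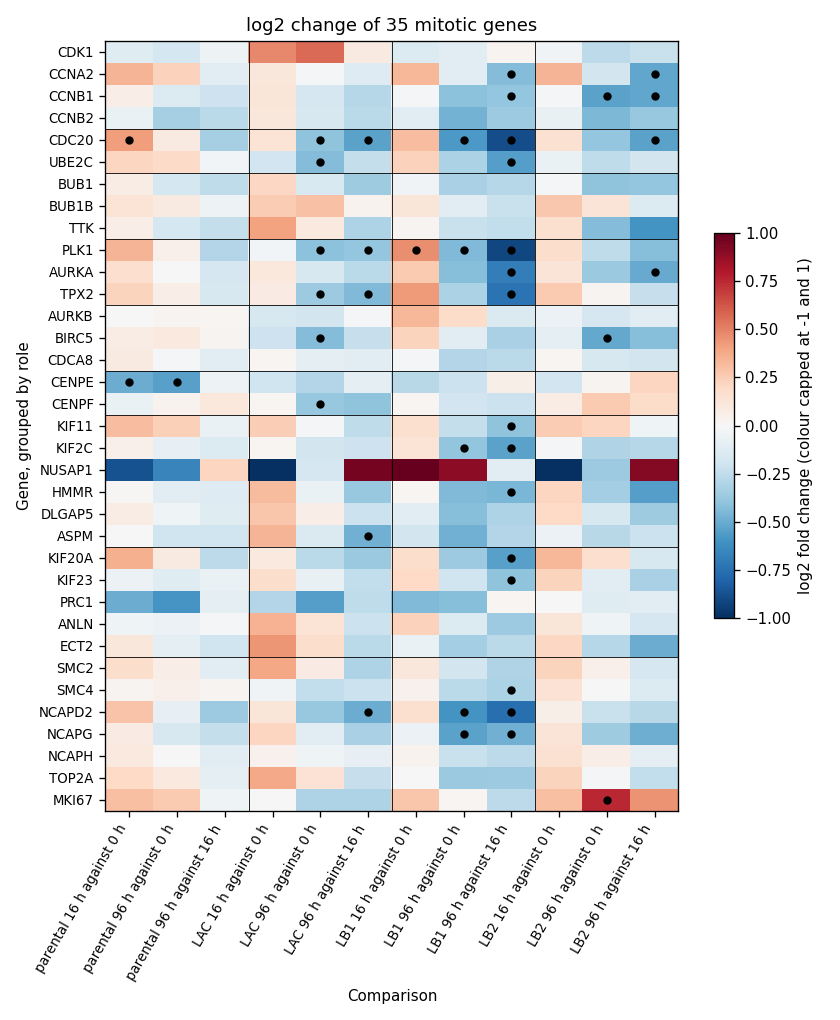
Log2 fold change (colour, capped at -1 and 1) of the 35 genes (rows, grouped by role) in 12 comparisons within lines (columns), with a dot where the adjusted p was under 0.05. The column LB1 96 h against 16 h holds 15 dots, all at lower levels, and the strong colours of NUSAP1 rest on a median count of 16.

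In LB1, 15 of the 35 genes (42.9%) fell between 16 and 96 h and none rose, while 10.9% of all genes tested fell and 9.53% rose. The median change of the 35 genes was -0.32 on the log2 scale, against 0.08 over all genes. The largest falls were those of the mitotic kinase PLK1, of CDC20, of the condensin I subunit NCAPD2, of TPX2, which activates Aurora A on the spindle, and of AURKA, the Aurora A kinase itself. With other scalings, the difference between the median of the 35 genes and that of all genes was nearly the same, at -0.41 with RLE and -0.40 with library size only, although the median of all genes moved from 0.08 to 0.19 and 0.27. The number that fell was 10 with RLE, 6 with library size only, 9 with no low-count filter, 13 with DESeq2 and 27 without the libraries under 5000000 counts, none of which belongs to the groups compared here. In the other 17 planned comparisons the count of called genes was 7 or lower. Each such count above 0 moved by over 1.5 times under at least 1 alternative, as did the 15 in LB1.

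PLK1 stood at 165, 154, 131 and 130 CPM in the LB1 libraries at 16 h and at 75.7, 73.4, 76.1 and 83.9 CPM at 96 h. Every 96 h library lay below every 16 h library and below the 3 libraries at 0 h (113, 95.6 and 104 CPM). Its change from 16 to 96 h was -0.91 ± 0.11 (adjusted p 1.14e-07), a 1.88-fold fall. CDC20 stood at 292, 317, 303 and 271 CPM at 16 h and at 146, 145, 175 and 175 CPM at 96 h. These groups did not overlap either, and the change was -0.88 ± 0.11 (adjusted p 8.15e-08). UBE2C, the ubiquitin-conjugating enzyme that works with the anaphase-promoting complex, went from 73.6 ± 12.5 to 50.3 ± 3.93 CPM (n = 4 each, SD), a change of -0.55 ± 0.15.

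TPX2 went from 272.5 ± 29.4 to 163 ± 23.0 CPM (n = 4 each, SD), a change of -0.74 ± 0.12 (adjusted p 2.88e-05). AURKA stood at 94.0, 99.3, 101 and 100.1 CPM at 16 h and at 66.0, 59.5, 56.9 and 61.5 CPM at 96 h, with no overlap. Its change was -0.69 ± 0.13 (adjusted p 8.28e-05). All 3 genes of the PLK1 and AURKA module were thus called. NCAPD2 went from 413 ± 23.1 to 244.5 ± 21.2 CPM (n = 4 each, SD), a change of -0.76 ± 0.14 (adjusted p 7.34e-05). PLK1, CDC20, NCAPD2, TPX2, AURKA and KIF2C, a microtubule depolymerase, were called in all 16 alternatives tried for them.

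Calls were spread unevenly over the other roles. Among the cyclins and CDK1, CCNA2 (-0.44 ± 0.11) and CCNB1 (-0.38 ± 0.12) fell, while CDK1, their kinase, was at 215 ± 50.6 CPM at 16 h and 220 ± 29.1 CPM at 96 h (n = 4 each, SD). Of the 6 spindle motors and assembly factors, 3 fell, namely KIF2C (-0.53 ± 0.10), HMMR (-0.46 ± 0.15) and KIF11 (-0.40 ± 0.13), the kinesin that pushes spindle poles apart. Of the 5 genes of the central spindle and cytokinesis, the kinesins KIF20A (-0.54 ± 0.18) and KIF23 (-0.40 ± 0.11) fell. Of the 7 genes of condensin and chromosome structure, NCAPD2, NCAPG (-0.48 ± 0.13) and SMC4 (-0.31 ± 0.09) fell, and TOP2A, the topoisomerase that untangles sister chromatids, had a change of -0.37 ± 0.14 with an adjusted p of 0.0518. None of the 3 spindle checkpoint kinases, the 3 passenger complex genes and the 2 kinetochore CENP genes was called. Their changes were from -0.29 to -0.22, from -0.32 to -0.15 and from -0.21 to 0.06. CCNB1, HMMR, KIF11, KIF20A and SMC4 each lost the call in 5 to 8 of 16 alternatives.

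**Figure D3:**
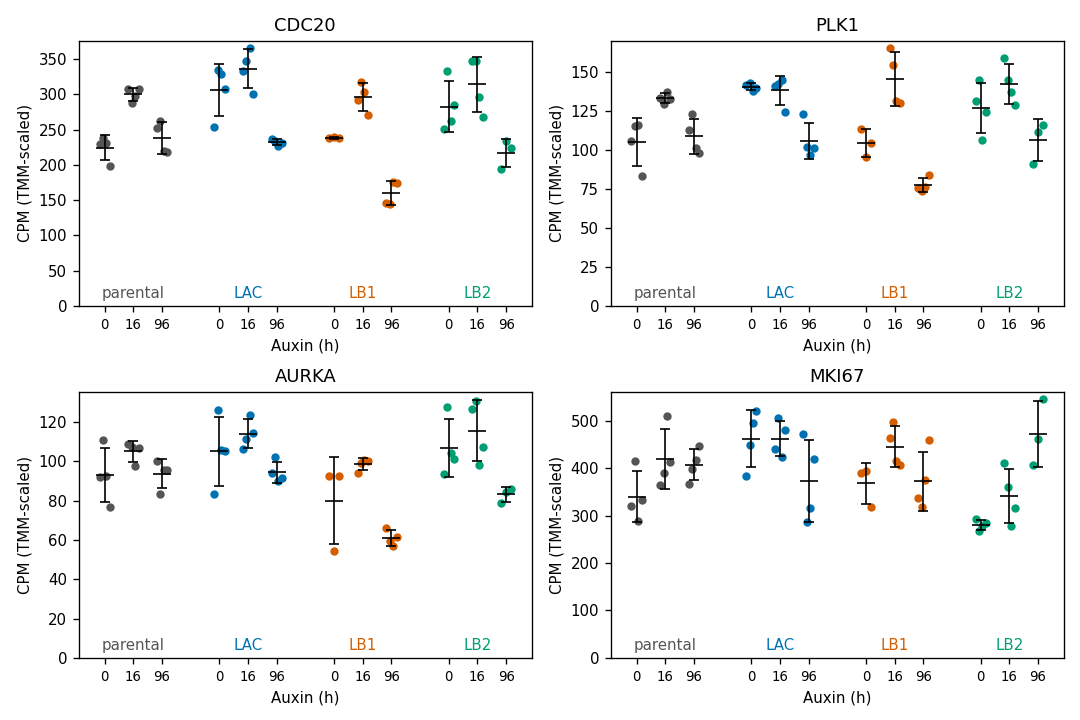
CPM (y axis, TMM-scaled) of CDC20, PLK1, AURKA and MKI67 in each library (points) by hours in auxin (x axis) and line (colour), with mean and SD (black). In LB1 the 96 h points of CDC20, PLK1 and AURKA lie below all 16 h points, and in LB2 the 96 h points of MKI67 lie between 407 and 546 CPM, above its 0 h points.

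At the other times in LB1 fewer genes were called. PLK1 rose at 16 h against 0 h by 0.46 ± 0.13 (adjusted p 0.0434), the 1 call in that direction, where 0.987% of all genes rose. That call was lost in 10 of 15 alternatives, among them the fits without any 1 library of LB1 at 0 h or without replicate 1 or 2 at 16 h. At 96 h against 0 h, 5 of the 35 genes fell and 0 rose, with 2.12% of all genes falling. They were NCAPD2 (-0.60 ± 0.15), CDC20 (-0.57 ± 0.12), NCAPG (-0.54 ± 0.14), PLK1 (-0.44 ± 0.12) and KIF2C (-0.39 ± 0.11). CDC20 was at 238, 240 and 238 CPM in the 3 libraries at 0 h. The count was 1 without replicate 1 or replicate 3 of LB1 at 0 h, and 2 or 3 without any 1 of the 96 h libraries.

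In the parental line, CENPE, the kinetochore motor, was lower at 16 and 96 h than at 0 h. It stood at 48.4, 47.5, 56.1 and 56.3 CPM at 0 h, at 35.6, 38.1, 35.1 and 38.5 CPM at 16 h and at 36.1, 30.7, 38.9 and 37.1 CPM at 96 h, so that neither later group overlapped the first. The changes were -0.50 ± 0.13 (adjusted p 0.0130) and -0.54 ± 0.13 (adjusted p 0.00635). At 16 h CDC20 also rose, from 224 ± 17.5 to 300.1 ± 9.06 CPM (n = 4 each, SD), by 0.42 ± 0.11 (adjusted p 0.0112). These were 2 calls at 16 h, where 9.01% of all genes were called in either direction, and 1 at 96 h, where 3.84% of all genes fell. At 96 h against 16 h none of the 35 genes was called by edgeR or by DESeq2 (0.265% of all genes were), although 30 of 35 had a negative change and 3 had an unadjusted p under 0.05. The 16 h count was 6 without replicate 2 of the 0 h group and 1 without replicate 4 of the 0 h or 16 h group, and the 96 h count was 0 without replicate 2 of the 96 h group.

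In LAC, genes of several roles were lower at 96 h than at 0 h and at 16 h. At 96 h against 0 h, 6 of the 35 genes fell and 0 rose, where 8.64% of all genes fell. They were UBE2C (-0.43 ± 0.15), BIRC5 (-0.43 ± 0.13), the survivin subunit of the passenger complex, PLK1 (-0.41 ± 0.11), CDC20 (-0.40 ± 0.11), CENPF (-0.38 ± 0.13) and TPX2 (-0.37 ± 0.12). CDC20 stood at 254, 335, 329 and 307.5 CPM at 0 h and at 237, 234, 226 and 231 CPM at 96 h, with no overlap. Without replicate 1 of the 0 h group, which stood apart, 3 of the 6 calls were lost, namely UBE2C (-0.29), BIRC5 (-0.28) and CENPF (-0.40, adjusted p 0.0691). The count was also 3 without replicate 2 or 3 of the 96 h group. With library size only, 2 genes fell and 2 rose, with RLE scaling 8 fell and 1 rose, and in a fit to the compared groups alone none was called.

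At 96 h against 16 h in LAC, 5 of the 35 genes fell and 0 rose, where 3.22% of all genes fell. CDC20 stood at 334, 347, 365 and 301 CPM at 16 h, above all 96 h values, and its change was -0.54 ± 0.11 (adjusted p 0.00107). The others were NCAPD2 (-0.49 ± 0.13), ASPM (-0.48 ± 0.14), which focuses spindle poles, TPX2 (-0.45 ± 0.12) and PLK1 (-0.39 ± 0.11). The count was 1 when replicate 2 or 3 of either group was left out, and 3 without replicate 1 of the 16 h group or replicate 4 of the 96 h group. Between 0 and 16 h in LAC edgeR called none of the 35 genes, with 9 at an unadjusted p under 0.05 and 1.78% of all genes called. DESeq2 called 2, and 8 rose when replicate 2 of the 0 h group was left out.

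In LB2, MKI67, the gene of the Ki-67 protein that coats mitotic chromosomes, was higher at 96 h than at 0 h. It stood at 292, 268, 278 and 284 CPM at 0 h and at 407, 463 and 546 CPM at 96 h, without overlap, and rose by 0.75 ± 0.15 (adjusted p 0.00142). It was the only 1 of the 35 genes that rose between 0 h and a later time in LB2. CCNB1 (-0.54 ± 0.14) and BIRC5 (-0.51 ± 0.15) fell, which made 3 calls, where 3.55% of all genes were called in either direction. Without replicate 1 of the 0 h group, which stood apart, CCNB1 (-0.68) and MKI67 (0.78) were called and BIRC5 (-0.38, adjusted p 0.128) was not, and the total was 5. The total was 1 without replicate 2 or 3 of the 96 h group, and MKI67 had an adjusted p of 0.0703 in the fit to these groups alone.

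At 96 h against 16 h in LB2, 4 of the 35 genes fell and 0 rose, where 1.45% of all genes fell. They were CDC20 (-0.54 ± 0.12), CCNA2 (-0.52 ± 0.12), CCNB1 (-0.52 ± 0.14) and AURKA (-0.50 ± 0.14). CCNB1 stood at 289, 350, 348 and 331 CPM at 16 h and at 241, 219.5 and 229 CPM at 96 h, and CCNA2 at 259, 290.4, 294 and 272 CPM and at 199.7, 184 and 198 CPM. Neither gene's groups overlapped. Without replicate 3 of the 16 h group, the shallowest library, the total stayed at 4, but CCNB1 (-0.47, adjusted p 0.0730) was not called. Without all libraries under 5000000 counts 13 fell, and with library size only 1 rose and 1 fell. The count ran from 0 to 5 over the fits that left out 1 library, with 0 without replicate 2 of the 16 h group or replicate 1 of the 96 h group. It was 1 without replicate 1 of the 16 h group or replicate 2 or 3 of the 96 h group. Between 0 and 16 h none was called by edgeR or DESeq2, with 4 at an unadjusted p under 0.05 and 1.81% of all genes called, and edgeR called 1 without replicate 2 of the 0 h group and 0 without replicate 3 of the 16 h group.

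Each line's change from 16 to 96 h rests on its own libraries, so the genes that fell can be set side by side. CDC20 fell in all 3 tagged lines, and in the parental line it had a change of -0.33 ± 0.11 with an adjusted p of 0.274. LAC and LB1 shared 4 genes, CDC20, NCAPD2, PLK1 and TPX2, which is 80% of those called in LAC and 26.7% of those in LB1. LB1 and LB2 shared AURKA, CCNA2, CCNB1 and CDC20, 26.7% and 100% of their calls. LAC and LB2 shared CDC20 alone, 20% and 25%. Over all genes tested that fell, the shares were 76.7% of those in LAC and 22.8% of those in LB1, 9.13% and 68.3% for LB1 and LB2, and 19.9% and 44.2% for LAC and LB2. Whether the 35 genes differ from all genes in this was not tested.

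Whether a tagged line's change differed from that of the parental line was tested directly. For 96 h against 0 h, CDC20 was the 1 gene called in LAC (-0.49 ± 0.15, adjusted p 0.0415), where 4.3% of all genes were lower, and the 1 called in LB1 (-0.66 ± 0.16, adjusted p 0.0298), where 0.317% were lower. In LB2 its difference was -0.47 ± 0.16 (adjusted p 0.182), and none of the 35 genes was called there by edgeR or DESeq2, with 7 at an unadjusted p under 0.05 and 0.368% of all genes called. The LAC call of CDC20 was lost in 12 of 24 alternatives, with a difference of -0.11 (adjusted p 0.744) once the GC and length trend was removed. With library size only, the 1 gene called in LAC was CDK1, in the higher direction. The LB1 call was lost in 11 of 23, at -0.48 (adjusted p 0.112) with that trend removed, and without any 1 of the 3 LB1 libraries at 0 h, replicate 1 or 2 of LB1 at 96 h, replicate 4 of the parental 0 h group or replicate 1 or 2 of the parental 96 h group. The LAC count of calls was 4 without replicate 2 of the parental 0 h group or replicate 1 of LAC at 96 h. The same count was 0 without replicate 4 of the parental 0 h group, replicate 1 or 2 of the parental 96 h group, replicate 3 of LAC at 0 h or replicate 2, 3 or 4 of LAC at 96 h. It was 2 or 3 without replicate 1 of the parental 0 h group or replicate 1, 2 or 4 of LAC at 0 h. Without replicate 1 of LAC at 0 h, which stood apart, the difference of CDC20 was -0.59 (adjusted p 0.0147).

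The same difference for 96 h against 16 h was added after the data were seen. PLK1 was called in LB1, at -0.62 ± 0.16 (adjusted p 0.0385), where 0.684% of all genes were lower. The call was lost in 16 of 24 alternatives, 12 of which left out 1 library. With the GC and length trend removed, PLK1 had a difference of -0.34 (adjusted p 0.131). TPX2 was the gene called in that fit, at -0.43 (adjusted p 0.0282). In LB1, CDC20 had a difference of -0.55 ± 0.15 (adjusted p 0.0576), TPX2 of -0.58 ± 0.18 (adjusted p 0.0814) and AURKA of -0.53 ± 0.18 (adjusted p 0.116). In LAC and LB2 none of the 35 genes was called by edgeR or DESeq2, with 1 and 3 at an unadjusted p under 0.05, and 0.121% and 0.0326% of all genes were called. More genes were called in LB1 by other fits, all of them among the 15 that fell. DESeq2 called CDC20, PLK1 and TPX2, and the fit to the compared groups alone called AURKA as well. Without the libraries under 5000000 counts 8 were called, and with RLE scaling, library size only or no low-count filter none was.

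Before auxin, LAC differed from the parental line in 7 of the 35 genes (20%), a share near that of all genes, of which 15.8% were called in either direction. Of the 7, 6 were higher (17.1% of the 35 genes, against 8.71% of all genes) and 1 was lower. This balance turned with library size only, where 2 were higher and 3 lower and the median of the 35 genes went from 0.10 to -0.08, and in the fit to the compared groups alone none was called. BIRC5 was higher by 0.57 ± 0.13, UBE2C by 0.56 ± 0.15, CDC20 by 0.45 ± 0.11, MKI67 by 0.44 ± 0.14, PLK1 by 0.42 ± 0.11 and TPX2 by 0.36 ± 0.12. Of these, 5 were among the 6 that fell from 0 to 96 h in LAC, a comparison that uses the same 0 h libraries. The 6 higher genes have a GC content from 46.8% (TPX2) to 57.9% (CDC20), and CDK1, the lower gene, has 37.0%. Over 16 alternatives the difference of CDC20 ran from 0.17 to 0.56 and that of PLK1 from 0.14 to 0.51. The calls were lost in 2 and 5 of them. CDK1 was lower by 0.63 on the log2 scale (-0.63 ± 0.21), and stood at 66.7 CPM in replicate 1, which stood apart, against 246, 169 and 170 CPM in the others. Without that library its difference was -0.35 (adjusted p 0.237), and the 6 higher genes were still called. The total was 4 without replicate 1, 3 or 4 of the parental 0 h group.

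LB2 at 0 h had higher CCNA2 (0.56 ± 0.12, adjusted p 8.48e-04) and CDC20 (0.34 ± 0.11, adjusted p 0.0441) than the parental line, where 3.91% of all genes were higher. Without replicate 1 of LB2, which stood apart, 8 of the 35 genes were higher. The count was 1 without replicate 2 or 4 of LB2 or replicate 1, 3 or 4 of the parental line. In LB1 at 0 h edgeR called none of the 35 genes and DESeq2 called 1, with 4 at an unadjusted p under 0.05 and 4.05% of all genes called.

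Other genes of the cell cycle were followed as 8 lists in the comparison of LB1 at 96 h with 16 h. The lists too were chosen with earlier results of these data known. Of the 142 genes tested, 43 fell and 5 rose, against the 10.9% and 9.53% of all genes given above. Among 22 regulators of G2 and mitotic transcription, 4 fell and 1 rose. The transcription factors MYBL2 (-0.75 ± 0.15) and FOXM1 (-0.51 ± 0.15) fell, and the repressor E2F8 rose (0.46 ± 0.14). Of 13 genes of the CDK1 switch, 8 fell and 1 rose. CCNF, cyclin F, went from 165 ± 27.4 to 82.5 ± 12.5 CPM (n = 4 each, SD), the phosphatase gene CDC25A changed by -0.77 ± 0.10, and CKS2, a CDK1-binding subunit, rose by 0.75 ± 0.18.

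Of 23 other kinetochore and checkpoint genes, 5 fell, SKA1 (-0.81 ± 0.12) and the centromeric histone gene CENPA (-0.74 ± 0.15) most, and KNTC1 rose (0.45 ± 0.15). Of 20 other spindle and cytokinesis genes, 6 fell, CKAP5 (-0.62 ± 0.13) and KIF4A (-0.59 ± 0.12) most, and KIF15 rose (0.57 ± 0.12). In the anaphase-promoting complex list, 3 of 16 fell, with the ubiquitin-conjugating enzyme UBE2S (-0.87 ± 0.18) and the activator FZR1 (-0.55 ± 0.16) lowest, and ANAPC16 rose (0.38 ± 0.12). Of 15 cohesin and condensin II genes 4 fell, CDCA5 (-0.51 ± 0.18) and WAPL (-0.49 ± 0.12) most. The S phase list had 9 of 22 lower, with the helicase subunit MCM2 (-0.64 ± 0.14) among them, so falls were not limited to mitotic genes. Of the 11 CDK inhibitors and G1 cyclins tested, 4 fell, CDKN1C, from 5.33 ± 1.20 to 2.64 ± 0.509 CPM (n = 4 each, SD), and CDK6 (-0.92 ± 0.15) most.

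GC content moved with the changes in some comparisons. Over 8657 genes, Spearman's rho of the log2 change with GC content was -0.65 for LAC at 96 h against 0 h and -0.30 for LB1 at 96 h against 16 h. Over the 35 genes it was -0.60 and -0.33, as a description across genes, which share libraries and are not independent replicates. CDC20 (57.9% GC) and PLK1 (57.1%) have the highest GC content of the 35 genes, and CENPE (35.3%) the lowest. After each library's trend with GC content and length was removed, rho over the 35 genes was 0.28 and -0.15. For LAC against the parental line at 0 h, rho was 0.49 over the 8657 genes and 0.65 over the 35. Over the 35 genes it was 0.13 there with the trend removed. With the trend removed, 16 fell in LAC at 96 h against 0 h and 18 in LB1 at 96 h against 16 h. Calls over all genes in either direction then went from 3304 to 3036 in LAC and from 4379 to 5564 in LB1. In the parental line at 96 h against 0 h, 9 also fell, while calls over all genes went from 1671 to 3085. Over all 16 alternatives, which include this fit, the change of CDC20 in LAC at 96 h against 0 h ran from -0.47 to -0.11. That of PLK1 ran from -0.48 to -0.13 there, and each gene lost the call in 3. The part of GC content in these results was not tested beyond this.

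**Figure D4:**
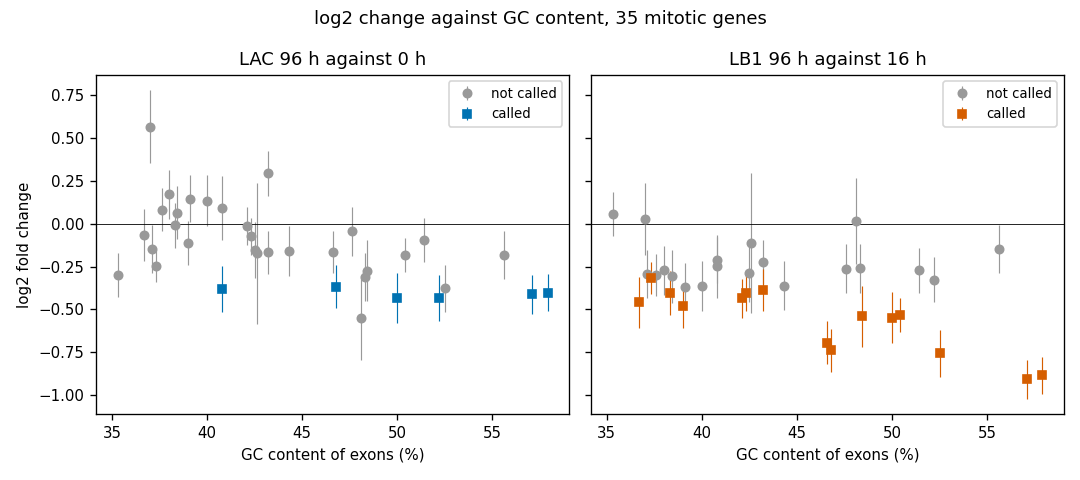
Log2 fold change (y axis, with its standard error) against the GC content of exons in % (x axis) for the 35 genes in LAC at 96 h against 0 h and LB1 at 96 h against 16 h, with called genes as coloured squares. In LB1 the lowest points are PLK1 (57.1% GC) and CDC20 (57.9% GC).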

How the data were processed

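RNA-seq of 46 libraries was used as 1 table of raw counts per gene, deposited by the authors and made, per the file headers, with featureCounts 1.6.4 in the nf-core/rnaseq 1.4.2 environment. The submitters' processing notes name GRCh38, STAR 2.7.10a, SAMtools 1.10, deepTools 3.4.5 and DESeq2 1.40.2, without roles. Strand setting, handling of multi-mapping reads and annotation release are not given in the sources used here. A gene broken over 3 lines was left out, and 0 columns were unmatched.

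Counts were tested in R 4.3.3 with edgeR 4.0.16 (TMM scaling, filterByExpr by group, 12 group coefficients, two-sided). CPM values are TMM-scaled, except for markers and lamins, which use library size. GC content (of each gene's longest transcript) came from GENCODE release 29, and overlaps from the exon positions in the count table. The members and lists were chosen with earlier results of these data known. Genes given with values were, by rule, the highest per kilobase in each role, the most changed called gene of each comparison, and up to 5 called genes per direction. Other called genes carry a change only. Values outside this rule (AURKA by library, CDK1 and TOP2A in LB1, and uncalled differences from the parental line) were chosen after they were seen.

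The fit was tested on simulated data for LB1 at 96 h against 16 h (20591 genes, dispersions from these data, 200 changed genes above 1 CPM): 31 of 100 genes changed 1.5-fold and 72 of 100 changed 2-fold were called, with 7 false calls. Most simulated 1.5-fold changes were thus not called. In the measured comparison 4379 of 21484 genes were called, many more than the 200 changed in the simulation. KIF11, KIF23 and SMC4 were called there at changes smaller than 1.5-fold. The simulated shares therefore do not tell how many changes of the mitotic genes were missed. Replicates were compared pairwise, and over 66 pairs chi-square per degree of freedom was 3.65 or higher, so no library was counted as a duplicate. Libraries with the same replicate number deviated together (every r over 0.1) for LAC at 0 and 16 h alone, of 12 pairs of groups within lines. Alternatives were DESeq2 1.42.0, scaling by library size only or by RLE, omission of the low-count filter, the compared groups alone, a replicate block, removal of the GC and length trend, libraries under 5000000 counts left out, and each replicate left out.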

Additional observations from a re-analysis of the deposited data

Results flagged for a closer look

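Values that lay far from the other libraries of their group were sought with Dixon's test in 170 sets of 4 libraries. The test flagged 8, a share close to the 1 in 20 that chance gives. The sets share libraries, so they are not independent. BIRC5 and UBE2C were highest in replicate 1 of LAC at 0 h, at 385.2 CPM against 267.5 to 275 and at 115.2 CPM against 79.6 to 82.6. That library held under 5000000 counts and had lamin levels unlike its group. Replicate 3 of LB2 at 16 h, with the fewest counts of all libraries, had CENPF at 243.6 CPM against 147 to 162. TPX2 was at 232.6 CPM in replicate 1 of the parental line at 16 h against 213 to 216 in the others. UBE2C was at 84.7 CPM in replicate 2 of the parental line at 96 h against 61.7 to 64.3. BIRC5 was at 231 CPM in replicate 4 of LAC at 16 h against 268 to 271, and KIF11 at 222.4 CPM in replicate 4 of LAC at 96 h against 197 to 200.5. The sum of the 35 genes was 6048 CPM in replicate 1 of LB1 at 16 h against 6709 to 6823.

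In 3 cases a tagged line's change differed from that of the parental line by the test of the difference itself (edgeR). CDC20 from 0 to 96 h differed by -0.49 in LAC (adjusted p 0.0415) and by -0.66 in LB1 (adjusted p 0.0298), and PLK1 from 16 to 96 h differed by -0.62 in LB1 (adjusted p 0.0385), a comparison added after the data were seen. The first 2 share parental libraries. Over all genes, 4.3%, 0.317% and 0.684% were lower in these 3 comparisons, in the same order. The 3 calls were lost in 12 of 24, 11 of 23 and 16 of 24 alternatives.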

How the results depend on the processing

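Of the 54 called values of single genes, none changed direction in 874 alternatives, and 279 of these alternatives lost the call. For LB1 at 96 h against 16 h the count of called genes was 10 to 18 over the fits that left out 1 replicate. Of the 6 libraries under 5000000 counts, 5 are at 0 h and the shallowest is at 16 h in LB2. The cause of the moves below was not tested.

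With no low-count filter, the parental line had 0 of the 35 genes called at 16 and at 96 h against 0 h. LAC then had 1 at 96 h against 0 h, 0 at 96 h against 16 h, 4 against the parental line at 0 h and 0 in the difference from the parental response. LB1 had 0 at 16 h and 0 at 96 h against 0 h, 9 at 96 h against 16 h, and 0 in both differences from the parental line. LB2 had 1 at 96 h against 0 h, 0 at 96 h against 16 h and 1 against the parental line.

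With library size only, LAC had 1 at 96 h against 16 h, and against the parental line at 0 h 2 higher and 3 lower in place of 6 and 1. LB1 had 0 at 16 h against 0 h, 3 at 96 h against 0 h, 6 at 96 h against 16 h and 0 in both differences, and LB2 had 2 at 96 h against 16 h (1 higher and 1 lower) and 1 against the parental line. With RLE scaling, LB2 had 1 higher and 4 lower at 96 h against 16 h, and LB1 had 0 at 16 h against 0 h and 0 in the added difference. With DESeq2, the parental line had 2 at 96 h against 0 h. LAC had 2 at 16 h and 10 at 96 h against 0 h, and 2 in the difference. LB1 had 9 at 96 h against 0 h, 1 against the parental line and 3 in the added difference. LB2 had 8 at 96 h against 0 h, 7 at 96 h against 16 h and 4 against the parental line.

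After removal of the GC and length trend, the parental line had 1 at 16 h and 9 at 96 h against 0 h. LAC had 2 at 16 h and 16 at 96 h against 0 h, 10 at 96 h against 16 h and 4 in the difference. LB1 had 0 at 16 h and 13 at 96 h against 0 h, 2 against the parental line and 0 in the difference over 96 h. LB2 had 2 at 16 h and 11 at 96 h against 0 h, 7 at 96 h against 16 h and 5 against the parental line. In fits to the compared groups alone, the parental line had 5, 2 and 1 at 16 h against 0 h, 96 h against 0 h and 96 h against 16 h. LAC had 0 at 96 h against 0 h, 16 at 96 h against 16 h, 0 against the parental line and 0 in the difference. LB1 had 0 at 16 h and 12 at 96 h against 0 h, 1 against the parental line, 2 in the difference and 4 in the added one. LB2 had 0 at 96 h against 0 h and against 16 h, and 1 against the parental line.

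Without the libraries under 5000000 counts, the parental line had 2 at 96 h against 0 h, and LAC had 12 at 96 h against 16 h and 3 in the difference. LB1 had 13 at 96 h against 0 h, 27 at 96 h against 16 h, 3 in the difference and 8 in the added one. LB2 had 10 at 96 h against 0 h, 13 at 96 h against 16 h and 8 against the parental line. Replicate numbers did not pair the libraries of most groups: of 44 pairs with the same number, 18 had deviations correlated above 0.1 (from -0.57 to 0.69), and 13 libraries correlated best with their own number. LAC at 0 and 16 h was the exception, with all 4 pairs above 0.1 (from 0.12 to 0.69), and there the block left the count at 0. At 16 and 96 h in LAC, 3 of 4 pairs were above 0.1. With the replicate block, 2 genes were called in the LAC difference in place of 1, the other counts stayed within 1.5 times, and all 54 gene calls held.

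Over the fits without 1 replicate, counts in the parental line ran from 1 to 6 at 16 h and from 0 to 1 at 96 h against 0 h, and were 0 at 96 h against 16 h. In LAC they ran from 0 to 8, from 3 to 9 and from 1 to 4 in the same order, from 0 to 4 in the difference and from 4 to 7 against the parental line at 0 h. In LB1 they ran from 0 to 1 at 16 h and from 1 to 5 at 96 h against 0 h, from 0 to 1 in the difference and from 0 to 2 in the added one. In LB2 they ran from 0 to 1, from 1 to 5 and from 0 to 5, and from 1 to 8 against the parental line.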
